A study of Mus musculus with 4 samples.

Results

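Genes that break down heme and handle iron were followed in myeloid-derived suppressor cells (MDSCs), the immature myeloid cells that restrain T cells in tumor-bearing hosts. The set held 9 genes, Hmox1, Blvra, Blvrb, Fth1, Ftl1, Slc40a1, Tfrc, Slc11a1 and Slc48a1, out of 32285 genes in the feature table. They were chosen by symbol for their roles, with earlier results of these data known. The higher Hmox1 level of WT cells grown with isoproterenol (ISO) was among those results, so the values of that comparison are a description of what the choice already held. All 9 symbols matched 1 row each, and all 9 passed the minimum of 50 unique molecular identifiers (UMIs) over the WT libraries.

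MDSCs were grown for 4 days from mouse bone marrow with IL-6 and GM-CSF, each at 40 ng/mL, sorted as live CD11b+ cells and profiled by single-cell RNA-seq. The groups described are WT cells without ISO (WT+PBS) and WT cells with ISO at 10 µM (WT+ISO). ISO is a β-adrenergic agonist, and the comparison asks what it does to the cells. Each group was 1 library, so there were no replicates, no test was made, and the 95% intervals given cover counting error only. Donor mice had a C57BL/6 background and were 6 to 10 weeks old, and how many animals gave marrow to a culture is not given in the sources used here. The sample titles separate the ISO culture from the other, whereas the treatment field gives isoproterenol for both, and the titles were followed.

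After filtering, WT+PBS held 2210 cells and 24393687 UMIs, and WT+ISO 2264 cells and 29400468 UMIs. The libraries had 8088.5 and 10252 UMIs per cell (median), and they shared no cell barcode. Levels are UMIs per 1000000 (CPM).

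Heme oxygenase 1, encoded by Hmox1, opens the heme ring and releases iron, carbon monoxide and biliverdin. Biliverdin is reduced to bilirubin by the biliverdin reductases Blvra and Blvrb, and Blvrb also reduces flavins. Freed iron is stored in the shell of ferritin, built from the heavy chain Fth1 and the light chain Ftl1, or leaves the cell through ferroportin, Slc40a1, the known cellular iron exporter. Tfrc takes up transferrin-bound iron, Slc11a1 (Nramp1) moves iron and other metals out of the phagosome, and Slc48a1 carries heme from the phagolysosome to the cytosol. Macrophages of spleen and liver use this chain to recycle iron from aged red cells. The transcription factor Nrf2 activates Hmox1 and the ferritin genes, Bach1 represses them, and ferritin and Tfrc are further set after transcription by iron regulatory proteins, so transcript and protein can part ways.

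In RefSeq (GRCm38.p6, the build of mm10 named in the submitters' processing notes), Hmox1 lies at chr8:75093618-75100593, Blvra at chr2:127070629-127097084 and Blvrb at chr7:27447978-27465981. Fth1 lies at chr19:9980600-9985111 and Ftl1 at chr7:45457944-45459886. The iron and heme carriers lie at chr1:45908070-45926532 (Slc40a1), chr16:32608896-32632794 (Tfrc), chr1:74375014-74386057 (Slc11a1) and chr15:97784365-97792692 (Slc48a1). Promoters of 6 of the 9 genes, 9 starts in all, matched the RefSeq promoter table, and Hmox1, Slc40a1 and Slc48a1 were not searched. Because the ferritin genes are textbook targets of Nrf2, the 250 bases before each of these starts were searched on both strands for the core of the antioxidant response element to which it binds, TGACNNNGC. The core was found in 1 of the 9 windows and in 10.2% of 32851 windows genome-wide. The match was in Blvra, with 40 bases between it and the start listed in the promoter table (position 127070657, which lies inside the gene span given above), on the strand opposite to the gene, and is shown with 20 bases on each side (chr2:127070588-127070636, plus strand, motif in capitals).
Blvra: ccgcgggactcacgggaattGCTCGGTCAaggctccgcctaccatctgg
The cAMP response element TGACGTCA was found in 0 of the 9 windows and in 1.55% of all windows. Both are letter matches in a short window and no evidence of binding. Sequence beyond the 250 bases was not searched, so a window without a match does not show that a gene lacks the element.

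Hmox1 was higher with ISO. Summed over all cells it stood at 69.6 CPM (95% interval 66.3 to 73.0) in WT+PBS and 134 CPM (129 to 138) in WT+ISO. The counting intervals did not overlap, and ISO over PBS was 1.92-fold (log2 ratio 0.94, 0.86 to 1.02). Hmox2, the constitutive heme oxygenase, stood at 78.6 CPM in WT+PBS and 78.3 CPM in WT+ISO. Its log2 ratio was -0.005 (-0.09 to 0.08), so the constitutive gene differed little.

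Of the biliverdin reductases, Blvrb moved in the direction of Hmox1 and Blvra in the other in the sums over all cells. Blvrb stood at 121 CPM in WT+PBS and 153 CPM in WT+ISO, a log2 ratio of 0.34 (0.27 to 0.41). Blvra, the main enzyme of bilirubin formation in the adult, stood at 54.9 CPM in WT+PBS and 47.6 CPM in WT+ISO. Its log2 ratio was -0.20 (-0.31 to -0.09), and it was the one gene of the 9 with a ratio below 0. At fixed cluster weights the Blvra ratio was -0.08.

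Ferritin transcripts took a large share of all UMIs, and each chain was higher with ISO in the sums over all cells. Fth1, the chain with ferroxidase activity, made up 1.29% of UMIs without ISO and 1.38% with it, a log2 ratio of 0.09. That small ratio turned to -0.02 with equal weight per cell, was 0.006 in thinned cells and 0.56 at fixed cluster weights. Ftl1, the chain that helps form the mineral core, made up 1.11% in WT+PBS and 1.38% in WT+ISO, a log2 ratio of 0.32. The ratio of the light chain was thus the larger in these sums. A near-identical copy, Ftl1-ps1, stood at 49.8 CPM in WT+PBS and 60.4 CPM in WT+ISO. Reads of the copy and of Ftl1 may be split between them, so the Ftl1 level is uncertain.

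Among the carriers, the exporter Slc40a1 had the largest ratio in the sums over all cells, though not at fixed cluster weights. It stood at 20.05 CPM in WT+PBS and 29.4 CPM in WT+ISO, a log2 ratio of 0.55 (0.39 to 0.71). The uptake receptor Tfrc stood at 61.7 CPM in WT+PBS and 75.1 CPM in WT+ISO, a log2 ratio of 0.28 (0.19 to 0.38). Export and uptake transcripts were thus both higher in the ISO library. The heme carrier Slc48a1 stood at 71.3 and 93.4 CPM in WT+PBS and WT+ISO, a log2 ratio of 0.39 (0.30 to 0.48). Slc11a1, the phagosomal metal carrier, rested on 197 and 288 UMIs and stood at 8.08 and 9.80 CPM, a log2 ratio of 0.28 with a wide interval (0.01 to 0.55).

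**Figure D1:**
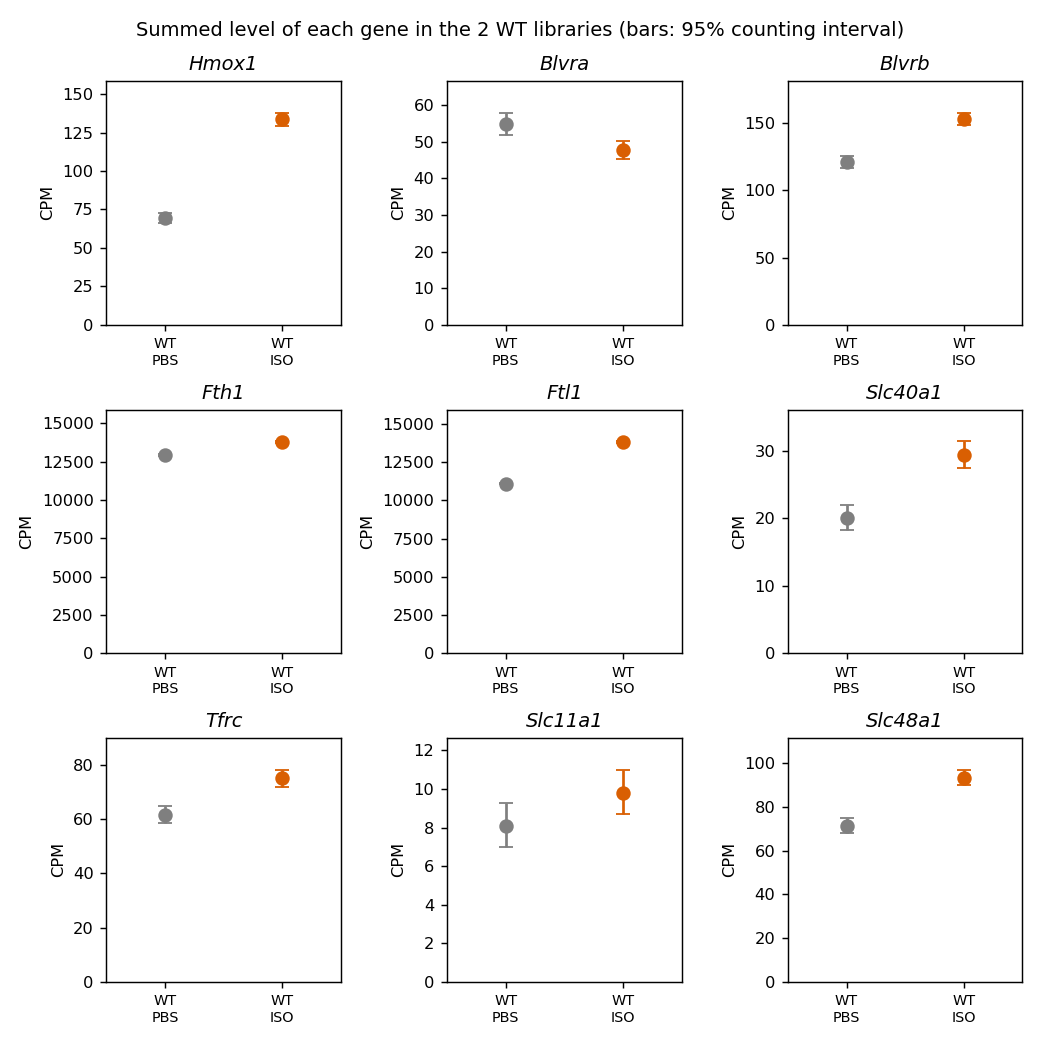
CPM of each of the 9 genes (vertical axes, from 0) in WT+PBS and WT+ISO (horizontal axes), with points for the summed level and bars for the 95% counting interval. Hmox1 stood at 69.6 CPM in WT+PBS and 134 CPM in WT+ISO, Blvra was the one gene lower in WT+ISO, and the bars of Slc11a1 overlap.

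The ratios were read against all genes with at least 50 UMIs, taking a log2 ratio of at least 0.5 as higher and of at most -0.5 as lower. With ISO, 2 of the 9 genes were higher (Hmox1 and Slc40a1) and 0 lower, beside 2.67% and 8.31% of 11852 genes. Just inside the limit was Slc40a1 at 0.55, and just outside it was Slc48a1 at 0.39. The median log2 ratio of the 9 genes was 0.32 and that of all genes -0.02.

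All cells of the series were grouped into 8 clusters without using heme or iron genes, and the WT cells of each cluster are described here. Mature neutrophil-like cells made up cluster 1 (890 WT cells, with Mmp9 and Retnlg leading), and clusters 3 (516 cells, Ltf) and 4 (577 cells, Camp) were specific granule neutrophil-like. The 355 cells of cluster 6, in which Mpo and Elane led, were azurophil granule progenitor-like. The 53 of cluster 7, with Fscn1 and Ccr7 but also Icos among the leading genes, were dendritic-cell-like. Cluster 0 (688 cells, led by Ptx3, Mrc1 and Mmp12) was left unnamed, because 2 of 7 macrophage markers and 5 of 5 monocyte markers were found in at least 10% of its WT cells. No name was given to cluster 2, whose 920 cells had Atp6v0d2 and Gpnmb as leading genes, or to cluster 5 (475 cells, Serpina3g). In cluster 2, 5 of 6 mature neutrophil markers and 1 of 7 macrophage markers were found in at least 10% of WT cells. Cluster 2 held little RNA, with a median of 3326 UMIs per cell, and Slc11a1 was itself among its leading genes.

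Hmox1, Blvrb and Fth1 were highest in clusters 0 and 2, and the uptake receptor Tfrc in the progenitors. Over both WT libraries Hmox1 stood at 271 CPM in cluster 0 and 201 CPM in cluster 2, against 7.36 CPM in the progenitors of cluster 6, a 36.9-fold range. Cluster 0 lay above cluster 2 in each library, at 143 against 115 CPM in WT+PBS and 451 against 330 CPM in WT+ISO. Mature neutrophil-like cluster 1 followed at 100 CPM (66.7 CPM in WT+PBS and 117 in WT+ISO). C1qb, a macrophage transcript used as a gauge of free RNA, was at 0.62 CPM or less in either library of each cluster other than 0 and 7. That gauge rested on 0 to 2 UMIs per cluster and library, too few to set how much Hmox1 in the neutrophil-like cells came from free RNA. Hemoglobin and other erythroid markers came to 17 UMIs in the PBS library and 6 in the ISO library, 5 of the 7 genes being at 0.

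Fth1 ran from 1349 CPM in cluster 6 to 39133 CPM in cluster 2, and Ftl1 from 7375 to 25638 CPM in the same clusters. For Ftl1, cluster 1 (16764 CPM) came before cluster 0 (15580 CPM). Blvrb had the same ends, at 25.6 and 407 CPM. Across the 16 pairs of cluster and library, Blvrb and Fth1 had a Pearson correlation of 0.94 on log2(CPM + 1), Hmox1 and Fth1 of 0.92 and Hmox1 and Blvrb of 0.91. These points share libraries and depth, and the correlations are descriptions. Blvra was set apart here too, at 75.8 CPM in cluster 0 and 15.9 CPM in cluster 1, with a correlation of 0.14 with Hmox1.

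The exporter Slc40a1 had a pattern of its own. It stood at 59.1 CPM in cluster 3 and 50.8 CPM in cluster 4, the specific granule neutrophil-like cells, and at 39.6 and 36.1 CPM in clusters 1 and 6. In cluster 0 it was at 0.89 CPM in WT+PBS and 2.92 CPM in WT+ISO, in cluster 5 at 3.03 CPM over both and in cluster 7 at 1.16 CPM. Clusters 0, 5 and 7 lay in both libraries below the lowest library of clusters 1, 2, 3, 4 and 6, which was at 25.0 CPM. The cluster with most Hmox1 transcript was thus among those with least ferroportin transcript. In the liver and spleen macrophages that recycle red cells, ferroportin is a defining gene, as is Spic, which had 2 UMIs without ISO and 4 with it. The hemoglobin receptor Cd163 had 0 in each.

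Tfrc stood at 145 CPM in progenitor-like cluster 6, 96.0 CPM in cluster 4 and 85.3 CPM in cluster 5, and was lowest in mature neutrophil-like cluster 1 at 14.5 CPM. The libraries of cluster 6 (167 CPM in WT+PBS and 131 CPM in WT+ISO) lay above those of cluster 4 (100 and 93.9 CPM). Slc48a1 was flatter, from 45.9 CPM in cluster 3 to 136 CPM in cluster 6, and its highest cluster changed with the clustering. With 4000 variable genes, the highest Tfrc cluster (117 CPM) drew 46.1% of its cells from cluster 6. That of Slc40a1 (51.5 CPM) drew 39.9% from cluster 3. At the finer resolution these shares were 89.0% and 89.7%. Slc11a1 was at 56.5 CPM in cluster 2 and 30.6 CPM in cluster 1, and at 6.61 CPM or less in each of the other clusters.

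**Figure D2:**
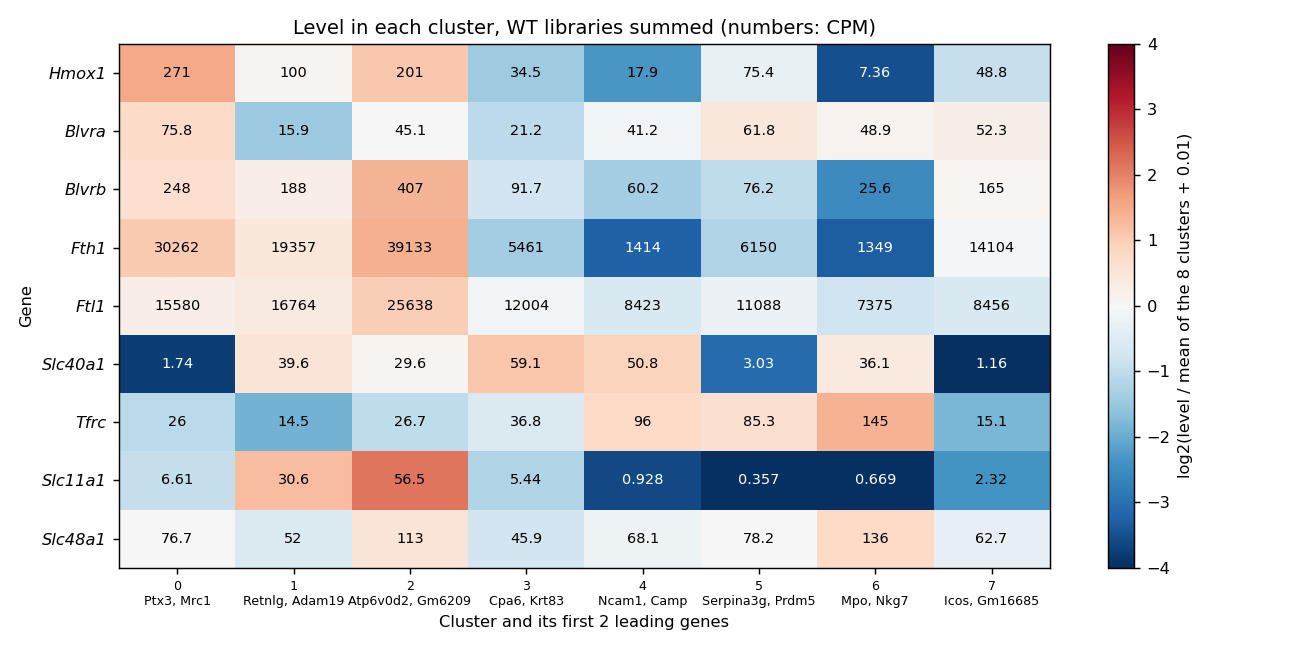
Level of the 9 genes (rows) in the 8 clusters (columns, with the first leading genes), WT libraries summed. Numbers are CPM and color is the log2 of the level over the mean of the clusters plus 0.01. Hmox1 was highest in cluster 0 (271 CPM), Blvrb and both ferritin chains in cluster 2, Slc40a1 in cluster 3 (59.1 CPM) and Tfrc in cluster 6 (145 CPM).

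The genes nearest in pattern were named by the highest Pearson correlation over the same 16 points among 7840 genes. For Hmox1 these were Soat1 (0.95), which esterifies cholesterol, the lysosomal protease Ctsl (0.95) and Vcan. For Blvrb they were the cystine importer Slc7a11 (0.95), Gnaq and Fth1 (0.94), and for Fth1 Cdc42ep2 (0.96), Capn2 and again Slc7a11 (0.96). Ftl1 was nearest to its copy Ftl1-ps1 (0.98), with which it may share reads, then to Ubap1 and the lysosomal membrane protein Lamp2 (0.93 each). Slc40a1 was nearest to Inpp1 (0.97), Tst and Vamp5. Tfrc was nearest to Glt1d1 (0.95), Plppr3 and Prtn3, a protease of azurophil granules.

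The make-up of the libraries moved with ISO. Cluster 0 held 18.9% of the cells of WT+PBS and 11.9% of WT+ISO, and cluster 2 held 26.4% and 14.9%. The 2 clusters richest in Hmox1 and Fth1 were thus smaller in WT+ISO. Cluster 1, which came next for both and second for Ftl1, was larger, at 23.5% against 16.2%, and so was cluster 4, at 16.3% against 9.41%. Marker lists differed as well, by unlike amounts. None of the 7 macrophage markers was at 0, and their sum was 144 CPM in WT+PBS and 61.8 CPM in WT+ISO. The 6 specific granule markers came to 14831 and 21647 CPM, and the 4 eosinophil markers to 53.1 and 3.13 CPM. Most eosinophil UMIs of WT+PBS were of Prg2 (983 UMIs in 25 cells). The sum of the 5 monocyte markers differed less, at 1641 and 1519 CPM, as did that of the 6 mature neutrophil markers, at 1366 and 1484 CPM. Single markers moved in opposite directions within these sums. Of the monocyte markers, Ly6c2 was higher in WT+ISO, at 1017 and 1253 CPM. Lower were Ccr2 (130 and 70.9 CPM), F13a1 (265 and 103), Csf1r (79.4 and 46.9) and Fn1 (150 and 45.6). Of the mature neutrophil markers, Mmp8 (445 and 753 CPM), Retnlg and Cxcr2 were higher. Il1r2 (568 and 377 CPM), Csf3r and Mmp9 were lower. In sums over all cells, fewer cells of a type and less RNA per cell cannot be told apart, so each gene was also compared within clusters and with the clusters held at fixed weights.

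Within clusters, Hmox1 was higher with ISO in 7 of 7 clusters with at least 50 UMIs, with log2 ratios of 0.23 to 1.66. In cluster 0 it stood at 143 CPM (134 to 152) in WT+PBS and 451 CPM (432 to 470) in WT+ISO, a log2 ratio of 1.66 (1.55 to 1.77). In cluster 2 it stood at 115 and 330 CPM, a log2 ratio of 1.52 (1.31 to 1.74). In these clusters the ratio was larger than in the sum over all cells. It was 0.81 in cluster 1 and 1.07 in cluster 5. In cluster 3 Hmox1 stood at 22.8 CPM in WT+PBS and 44.7 CPM in WT+ISO. In clusters 4 and 6 the intervals of the ratio, -0.28 to 0.75 and -0.45 to 1.13, span 0, so a difference there was not detectable at this depth.

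More cells of cluster 0 held an Hmox1 UMI as well. Each cell of at least 2000 UMIs was thinned to that depth. This left out 181 cells of WT+PBS and 127 of WT+ISO, of which 137 and 99 were in cluster 2. The thinned share of cluster 0 cells with an Hmox1 UMI was 23.0% in WT+PBS (417 cells) against 46.8% in WT+ISO (269 cells). In cluster 6, the low end of the range, the thinned shares were 2.13% and 3.33%. Unthinned, the shares of cluster 0 were 68.9% and 87.4%, at a median of 16264.5 UMIs per cell, and those of cluster 6 were 12.7% and 16%, at a median of 24636.

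**Figure D3:**
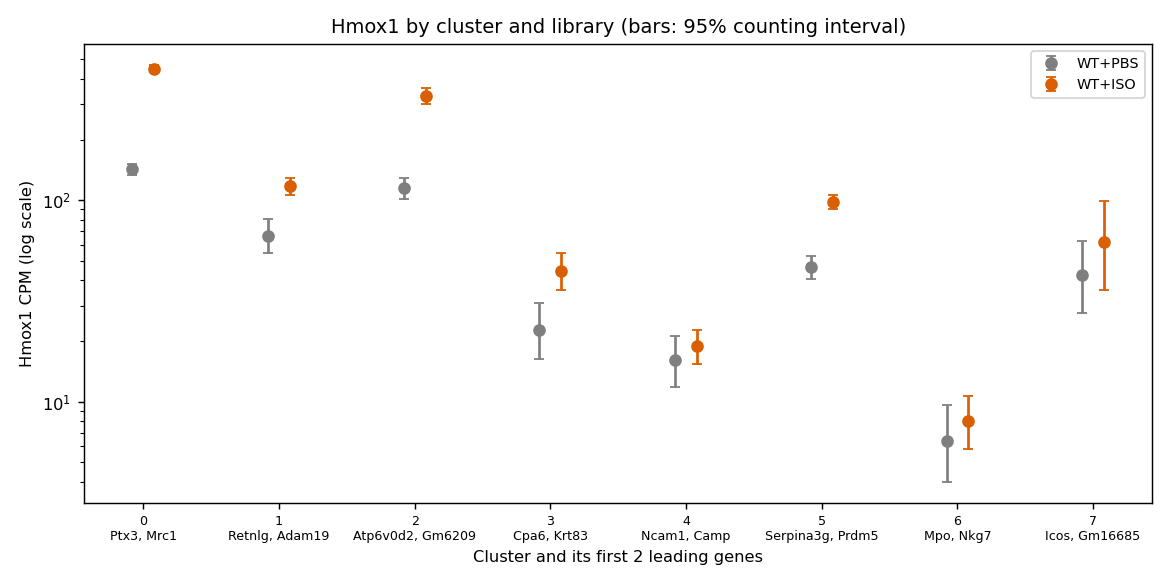
Hmox1 CPM (vertical axis, log scale) in each cluster (horizontal axis) for WT+PBS and WT+ISO, with bars for the 95% counting interval. The ISO library lies higher in each cluster, most in clusters 0 (143 and 451 CPM) and 2 (115 and 330 CPM), and the bars overlap in clusters 4, 6 and 7.

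Blvrb, Fth1, Ftl1 and Slc48a1 each had a log2 ratio of ISO over PBS above 0 in 8 of 8 clusters. The share of all genes above 0 in every cluster was not counted, here or for Hmox1. The intervals of Slc48a1 in clusters 3, 6 and 7 and of Blvrb in cluster 4 span 0, so differences there were not detectable. The ratios ran from 0.14 to 1.25 for Blvrb, 0.09 to 1.27 for Fth1, 0.18 to 0.71 for Ftl1 and 0.09 to 0.75 for Slc48a1. Their medians over the clusters were 0.77, 0.37, 0.47 and 0.40. Blvra was on both sides of 0, higher in 4 of 7 clusters, between -0.26 and 0.22. Its interval spans 0 in each of the 7, so no difference of Blvra was detectable within these clusters.

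Counts past the limit were set beside all genes in clusters 0 and 2 only, and cluster 0 had more of the genes past it. Of the 8 genes with enough UMIs in cluster 0, 7 were higher with ISO and 0 lower, beside 5.68% and 5.29% of 9550 genes. Blvra was the exception at -0.19, with an interval that spans 0 (-0.39 to 0.01). Fth1 stood there at 23022 CPM in WT+PBS and 40396 CPM in WT+ISO, Ftl1 at 12313 and 20153 CPM, and Blvrb at 193 and 326 CPM. The low-count carrier Slc11a1 stood at 3.13 and 11.5 CPM, a log2 ratio of 1.87 (1.13 to 2.67). In cluster 2, 4 of 9 genes were higher (Hmox1, Blvrb, Slc40a1 and Tfrc) and 0 lower, beside 4.36% and 10.1% of 6884 genes. The intervals of Slc40a1 and Tfrc there, each from -0.02 upwards, span 0, so these differences were not detectable at this depth. Fth1 stood there at 37037 and 42291 CPM, so the storage chain was already high without ISO. Genes past the limit were not confined to these clusters. In cluster 1, Hmox1 (0.81), Blvrb (0.88), Tfrc (0.92), Slc11a1 (0.63) and Slc48a1 (0.69) were past it, with intervals above 0.

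The cells of cluster 0 were not alike in the libraries. C1qb stood there at 43.1 CPM in WT+PBS and 5.01 CPM in WT+ISO. At a finer resolution most of cluster 0 parted into a C1q-poor group (469 WT cells, led by Ankrd55 and Rarres1) and a C1q-rich group (213 cells, led by C1qb and Ptx3). The C1q-poor group held 62.7% of cluster 0 in WT+PBS and 70.0% in WT+ISO. Hmox1 was higher with ISO in both groups, at 146 and 429 CPM in the C1q-poor cells and at 134 and 542 CPM in the C1q-rich cells. C1qb also differed within the C1q-rich group, at 128 CPM in WT+PBS and 21.6 CPM in WT+ISO. The part of C1q-expressing cells in the cluster-wide ratio was not tested beyond this split.

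The finer clusters also set apart a group of 237 WT cells led by Gpnmb and Atp6v0d2, most of them (86.9%) from cluster 2. Over both libraries, this group held the highest level of Hmox1 (341 CPM), Fth1 (49315.5 CPM) and Ftl1 (35683 CPM) of the 14 fine clusters. In WT+ISO alone, the C1q-rich group was higher for Fth1, at 51736 against 47749 CPM. For Hmox1 the intervals of these groups overlapped in WT+ISO. Gpnmb and the V-ATPase subunit Atp6v0d2 are lysosomal genes of macrophages and osteoclasts. Hmox1 in this Gpnmb-led group stood at 217 CPM in WT+PBS and 580 CPM in WT+ISO. Fth1 was lower with ISO there, a log2 ratio of -0.07 (-0.10 to -0.04). The Slc40a1 level of the group was 63.6 CPM over both, resting on 73 UMIs. Summed over the group, heme oxygenase and ferroportin transcripts were thus both high. Whether the same cells held both was not tested, and a mixture of cells could give these sums. The group made up 7.15% of WT+PBS and 3.49% of WT+ISO. Over the fine clusters with enough UMIs, Hmox1 was higher with ISO in 13 of 13, by log2 ratios of 0.31 to 2.02. The share of all genes higher in every fine cluster was not counted. The lowest of these Hmox1 ratios, 0.31 to 0.56, had intervals that span 0.

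For the carriers the clusters gave a mixed picture. Slc40a1 had a ratio above 0 in 4 of 5 clusters, with ratios between -0.12 and 0.54 over the 5. Only in cluster 4 (0.39, 0.09 to 0.70) did its interval not span 0. Tfrc was higher by at least 0.5 in 4 clusters (0, 1, 2 and 3), though its interval in cluster 2 spans 0. The share of all genes past the limit was not counted in clusters 1 and 3. In the progenitors of cluster 6, where it is most abundant, it stood at 167 CPM in WT+PBS and 131 CPM in WT+ISO, a log2 ratio of -0.36 (-0.52 to -0.20).

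**Figure D4:**
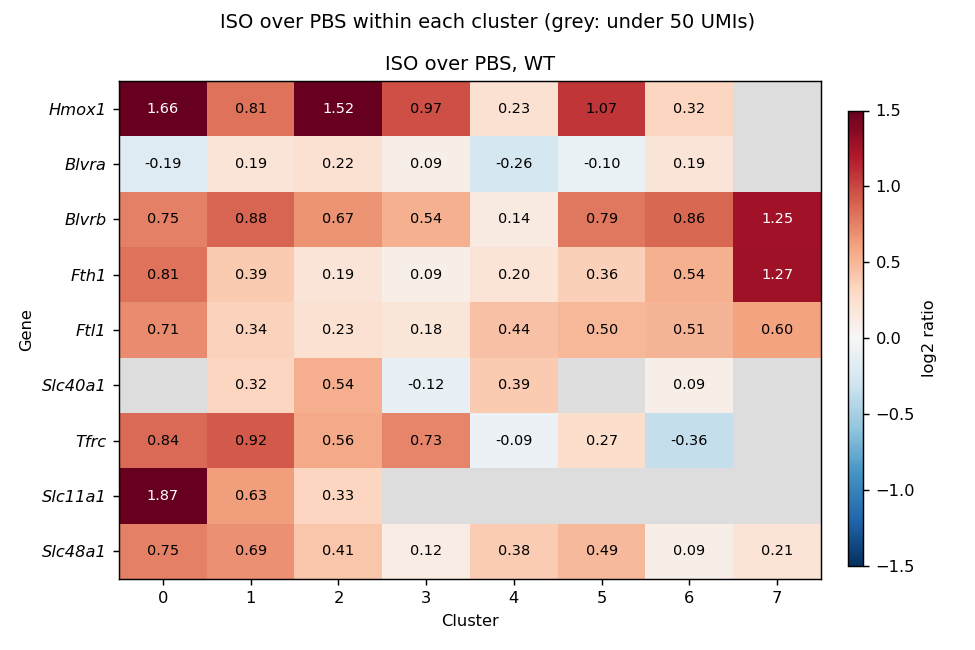
Log2 ratio of ISO over PBS in WT for the 9 genes (rows) in each cluster (columns), with gray where the libraries held fewer than 50 UMIs. Hmox1, Blvrb, Fth1, Ftl1 and Slc48a1 were above 0 in each cluster shown, and Tfrc was below 0 in clusters 4 (-0.09) and 6 (-0.36).

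At fixed cluster weights, 4 genes were higher with ISO (Hmox1, Blvrb, Fth1 and Slc11a1) and 0 lower, beside 2.96% and 4.19% of 11851 genes. The Hmox1 log2 ratio was then 1.40 in place of 0.94, that of Blvrb 0.71 in place of 0.34, and that of Fth1 0.56 in place of 0.09. The ratio of Slc40a1 was 0.26, no longer past the limit and below those of Slc11a1 (0.60) and Slc48a1 (0.40), and that of Tfrc was 0.05.

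**Figure D5:**
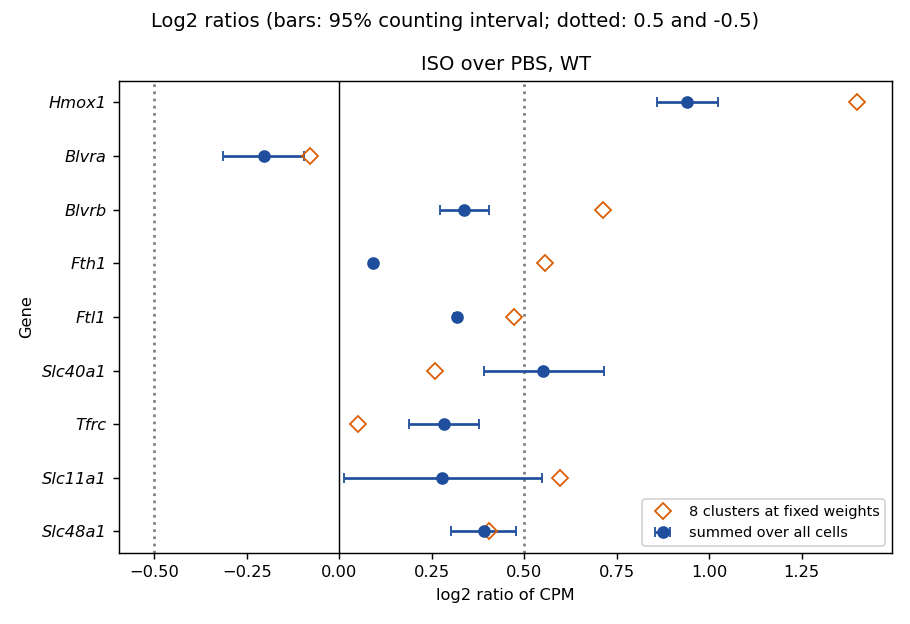
Log2 ratios (horizontal axis) of the 9 genes (vertical axis) for ISO over PBS in WT. Filled points are sums over all cells with 95% counting intervals, open diamonds are the 8 clusters at fixed weights, and dotted lines mark 0.5 and -0.5. The diamonds of Hmox1, Blvrb and Fth1 (1.40, 0.71 and 0.56) lie to the right of the points, and those of Slc40a1 and Tfrc (0.26 and 0.05) to the left.

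A wider list of heme and iron genes held 50 genes in the feature table. With ISO, 5 of the 37 with enough UMIs were higher and 1 lower, beside 2.67% and 8.31% of all genes, and their median log2 ratio was 0.04. The secreted iron binders Lcn2 and Ltf were higher, at log2 ratios of 0.54 and 0.58. Both are also genes of specific granules, whose cluster 4 was larger in WT+ISO, and the part of that shift was not tested. The others were Steap3 (1.20), a ferrireductase of the endosome, Abcb6 (0.99), a porphyrin carrier, and Slc39a8 (0.54), a zinc and iron importer. Few UMIs stood behind these in WT+PBS and WT+ISO, and their intervals were wide. Steap3 had 30 and 83 UMIs (0.58 to 1.85), Abcb6 58 and 139 (0.54 to 1.46) and Slc39a8 62 and 109 (0.08 to 1.02). The lower gene was the importer Slc39a14 (-0.65).

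The regulators of Hmox1 differed less than it did at the transcript level. Nfe2l2, which encodes Nrf2, stood at 154 CPM in WT+PBS and 117 CPM in WT+ISO, a log2 ratio of -0.40 (-0.47 to -0.34) in the sums and -0.25 at fixed cluster weights. Bach1 stood at 29.6 and 28.6 CPM, a log2 ratio of -0.05 (-0.20 to 0.09), and of 0.04 at fixed weights. Mafg, a small Maf protein that pairs with Nrf2 or Bach1, stood at 71.0 and 86.1 CPM, a log2 ratio of 0.28 (0.19 to 0.37), and of 0.22 at fixed weights. The Nrf2 inhibitor Keap1 and Mafk had ratios of 0.12 and 0.14 with intervals that span 0. Alas1, the first enzyme of heme synthesis, stood at 217 and 235 CPM, a log2 ratio of 0.12. Of 4 other targets of Nrf2, all had a ratio above 0, as did 46.6% of all genes. Gclm, of glutathione synthesis, stood at 187 CPM in WT+PBS and 366 CPM in WT+ISO, a log2 ratio of 0.97. The quinone reductase Nqo1 stood at 5.62 and 13.5 CPM, a log2 ratio of 1.26 (0.98 to 1.55). Srxn1 had a ratio of 0.52 and Txnrd1 of 0.24. At fixed cluster weights the ratios were 1.04 for Gclm, 1.29 for Nqo1, 0.80 for Srxn1 and 0.47 for Txnrd1, beside 55.6% of genes above 0.

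Hmox1 transcripts were spread unevenly over the cells. At least 1 Hmox1 UMI was found in 31.6% of WT+PBS cells and 39.8% of WT+ISO cells, unthinned. The 10% of cells with most of them held 65.4% of Hmox1 UMIs without ISO and 72.0% with it, while the deepest 10% of cells held 27.1% and 25.6% of all UMIs. For Ftl1 the corresponding shares were 28.0% and 27.4%, close to those of total UMIs, and for Fth1 they were 43.0% and 50%. Hmox1 and Fth1 UMIs were thus more concentrated in WT+ISO. Low counts alone gather the UMIs of a gene in few cells, and their part was not tested. Without ISO, Slc40a1 (73.6%) and Tfrc (69.0%) were more concentrated than Hmox1, and with ISO less so (59.6% and 56.4%). Slc40a1 was found in 4.53% of cells without ISO and 6.69% with it after thinning, and in 15.8% and 25.4% unthinned.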

How the data were processed

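UMI counts per gene and cell were deposited by the authors without normalization, as 10X matrices of barcodes kept as cells, and the matrix headers name Cell Ranger 7.0.0. The submitters' processing notes list Cell Ranger 6.0.0, Seurat and mm10, and which version made the files is not settled by these sources. The 12 multiplexing tags were not used. The paper describes labelling of cells with Feature Barcodes and pooling of suspensions before loading. Whether the groups shared a capture is not settled by these sources. Cells below 200 genes or above 10% mitochondrial UMIs were removed, which left 4474 of 4532 in the WT libraries. UMIs were summed per library, or per library and cluster, and divided by the total (CPM). Ratios have exact conditional binomial intervals, levels exact Poisson intervals and shares of cells exact Clopper-Pearson intervals, all 95%. The ratio and its interval were tested on simulated data.

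After scaling each cell to 10000 and taking logs, 2000 variable genes without the heme and iron genes, 30 principal components, 15 neighbours and Leiden resolution 0.4 (scanpy 1.11.5) gave the clusters, found on 9303 cells of all 4 libraries. All levels and ratios come from WT cells, and what concerns the other libraries is not reported here. Cluster names rest on marker lists. At fixed weights, each cluster counts by its share of all WT UMIs. No doublet caller was run, and removal of the 5% of cells with most UMIs stood in for it.

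The 9 genes, the lists, the limit of 0.5 and the alternatives were chosen with earlier results of these data known. Splits into C1q-rich and C1q-poor cells, and counts within clusters 0 and 2, were added after the data were examined. Genes named beyond the 9 are those of the heme and iron list past the limit, the most abundant of its groups, the 3 nearest genes by correlation (given for 6 of the 9), leading genes and marker genes. Nqo1, Gclm, Txnrd1 and Srxn1 are listed as other targets of Nrf2. Nfe2l2, Bach1, Mafg, Mafk, Keap1, Spic, Cd163 and Hmox2 were named for their roles after their values were seen, and the fixed-weight ratios of regulators and Nrf2 targets were added then.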

Additional observations from a re-analysis of the deposited data

How the results depend on the processing

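Each group has 1 library, so the comparison could not be repeated, and differences between cultures or animals cannot be told apart from those of treatment. No paired analysis was possible because the groups held 1 library apiece. Of 22 counts of genes past the limit under the alternatives, 19 stayed within 1.5 times of the reported count and 3 did not. The counts of genes lower with ISO were 0 in each setting, so all 3 that moved were counts of higher genes. Raising the minimum to 200 UMIs left out none of the 9 genes. Single ratios and levels were set against the 95% counting interval of the main value. For log2 ratios of the 9 genes, 58 values fell inside it and 32 outside. For the level of the highest cluster, 12 fell inside and 15 outside. Genes higher with ISO numbered 4 at fixed cluster weights, 4 with finer clusters at fixed weights and 1 with equal weight per cell, in place of 2. In thinned cells they numbered 3, exactly at 1.5 times, and this was counted among the 19. Over 10 alternatives the Hmox1 log2 ratio was 0.87 to 1.46, that of Slc40a1 0.26 to 0.66 and that of Tfrc 0.004 to 0.39. Small ratios changed sign in single alternatives, that of Fth1 with equal weight per cell (-0.02) and that of Slc11a1 in thinned cells (-0.23). The highest Hmox1 cluster was 0 at the resolution used and the Gpnmb-led group at the finer one. Scaling moved the median of all genes by at most 0.043.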
